A study of Homo sapiens with 7 samples.

Results

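The genes described here are the human SR protein, hnRNP and core splicing factor genes, chosen by name alone: protein-coding genes of the RefSeq GRCh38.p14 table whose symbol begins with SRSF and a number, HNRNP, SF3A or SF3B and a number, PRPF and a number or SNRP, together with U2AF1 and U2AF2. The name rule took 73 of 20052 protein-coding genes, and 72 of them had a strand and could be placed among 19626 such genes on chromosomes 1 to 22 and X. HNRNPCL3 had no strand in the tables used and had no peak within 5 kb in any library. The data were peak lists from chromatin immunoprecipitation sequencing (ChIP-seq) with the antibody 6D7 against threonine 4 phosphorylation (pThr4) of the C-terminal domain (CTD) of RNA polymerase II. The cells of all libraries were formaldehyde-fixed HEK293, a standard line derived from human embryonic kidney. Matched aliquots of nuclear lysate were incubated with the phosphatase SCP1 in its active form (SCP1 WT, n = 3) or with the catalytically inactive mutant SCP1 D96A (n = 3), so the inactive enzyme served as the control and both groups compared here received added enzyme. The comparison asks where pThr4 is listed once a neighbouring phosphorylated serine 5 has been exposed to the phosphatase; the treatment was made on lysate, not in living cells. An IgG library (n = 1), for which the labels name no SCP1, was not analysed here.

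Splicing removes introns from pre-mRNA, largely while RNA polymerase II is still transcribing. SR proteins and hnRNPs bind the nascent transcript and steer the choice of splice sites, whereas the Sm proteins, the SF3A and SF3B complexes, U2AF and the PRPF proteins build and drive the spliceosome itself. Their own genes are known for high expression in most cell types and for alternative exons and retained introns through which many of them limit their own mRNA.

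A peak here is an interval that the authors' caller listed in a single library, with 2 values: the fold enrichment over the caller's background and the -log10 of its p-value. The promoter window ran 1 kb to either side of the annotated transcription start site (TSS), the gene body from 1 kb inside the TSS to the transcription end site (TES), and the downstream window from the TES to 5 kb past it. A gene counted as occupied when a peak shared at least 1 bp with the window, and its value was that of the peak with the highest -log10 p. The lists differed greatly in length, with 6680 to 36892 peaks after active SCP1 and 1163 to 2699 after inactive SCP1, and longer lists reached weaker peaks (lowest -log10 p 3.08 to 3.79 against 4.20 to 4.6). The read depth behind each list is unknown. Of the 8 kidney epithelial or embryonic kidney marker genes, 6 had a peak in at least 1 library, beside 65.4% of all protein-coding genes. PAX8 and LHX1 had it in active replicate 3 only and KRT8 in active replicate 1 only. Of 8 genes of other cell types 2, GFAP and VWF, had a peak, in active replicate 3 only. None of these genes had a peak with inactive SCP1. Peak lists measure no RNA, and the cell type was not tested with them.

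The splicing factor genes were occupied mainly at their 3' ends. Downstream of the TES, 52, 46 and 54 of the 72 members had a peak in active replicates 1, 2 and 3, and 34, 28 and 39 had a peak in inactive replicates 1, 2 and 3. These were 72.2%, 63.9% and 75% of the members with active SCP1, where all protein-coding genes stood at 25.9%, 18.8% and 39.4%. With inactive SCP1 the shares were 47.2%, 38.9% and 54.2% of the members against 10.1%, 5.25% and 10.7% of all genes. The member counts of the groups did not overlap, and in each of the 6 libraries the member share lay above that of all genes. Relative to all genes the members were 2.70 ± 0.75 times as often occupied with active SCP1 (mean ± SD, n = 3) and 5.71 ± 1.49 times with inactive SCP1 (n = 3). Over the 3 windows together, 55, 48 and 56 members had a peak with active SCP1, as against 37, 30 and 40 with inactive SCP1, or 1.85 ± 0.58 and 4.13 ± 1.17 times the share of all genes (n = 3 and 3). No test was made of the member list as a whole, since its genes were chosen with earlier results of these data known.

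**Figure D1:**
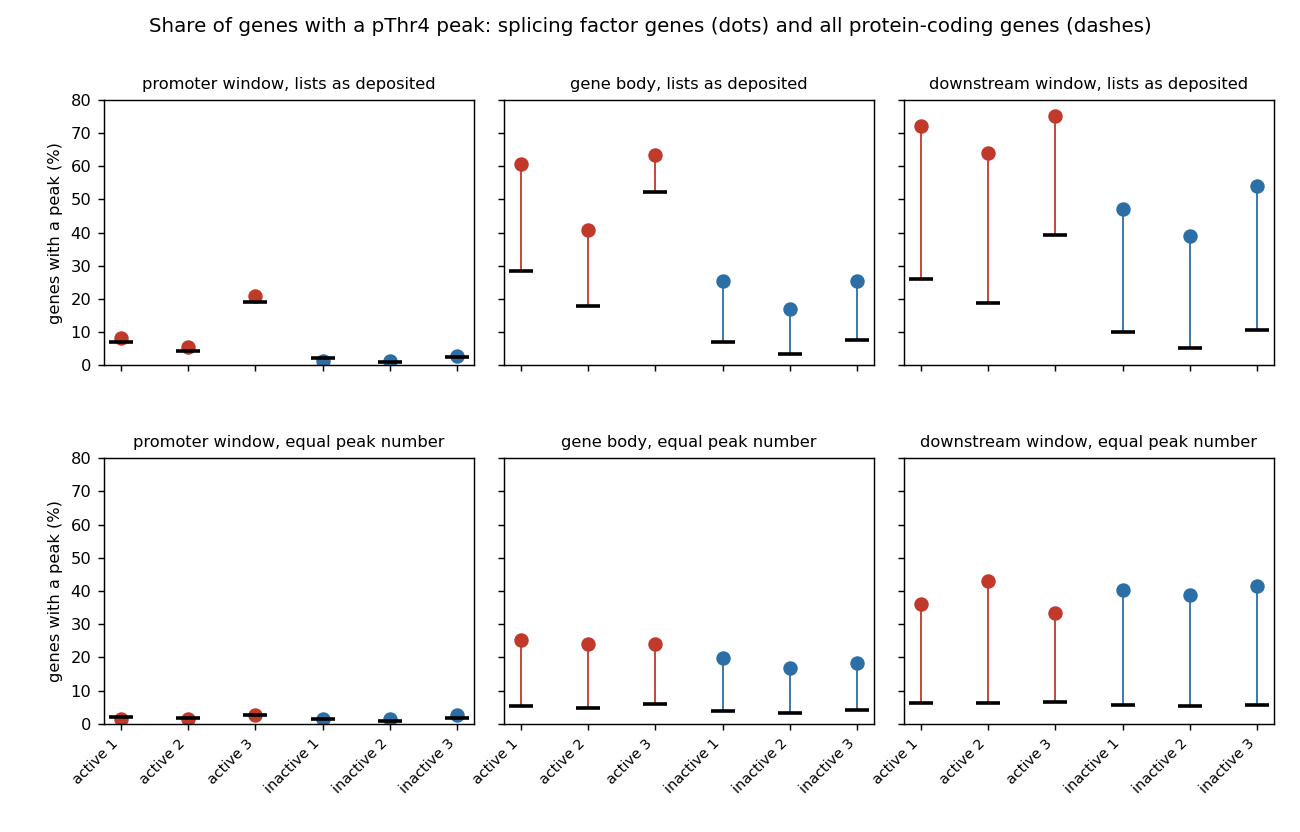
Percent of genes with a pThr4 peak (y axis) in each of the 6 libraries (x axis; red, active SCP1; blue, inactive SCP1) in the promoter window, gene body and downstream window, for the splicing factor genes (dots) and all protein-coding genes (dashes). The upper panels use the lists as deposited and the lower panels the 1163 strongest peaks of each list; downstream the dots lie between 38.9% and 75% above and between 33.3% and 43.1% below, and the groups overlap in the lower panel.

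With lists of equal length the groups were not separated in the downstream window. When each list was shortened to its 1163 strongest peaks, 26, 31 and 24 members were occupied with active SCP1, as against 29, 28 and 30 with inactive SCP1, and the groups overlapped. The member shares then stood at 33.3% to 43.1% against 6.17% to 6.67% of all genes with active SCP1, and at 38.9% to 41.7% against 5.25% to 5.79% with inactive SCP1. With only peaks of a -log10 p of at least 6 in every list, 31, 32 and 31 members were occupied with active SCP1. With inactive SCP1 the counts were 25, 19 and 24, and the groups did not overlap. All protein-coding genes then stood at 8.36%, 6.43% and 10.6% against 4.39%, 2.76% and 4.30%, also without overlap. The separation is thus not particular to the members. A downstream peak in all 6 libraries was then held by 16 members with equal list lengths (2.39% of all genes) and by 14 with the common cutoff (1.8%), and the active-only pattern by 0 (0.336%) and by 1, PRPF6 (1.01%).

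Coverage along the genes placed the maximum just past the TES. The share of members covered by a peak was highest 700, 400 and 600 bp past the TES in active replicates 1 to 3, at 52.8%, 44.4% and 54.2%. With inactive SCP1 it was highest 500, 400 and 1000 bp past the TES, at 29.2%, 22.2% and 36.1%. All protein-coding genes reached at most 20.2% in any active library and 4.48% in any inactive library around the TES. Around the TSS the share of members was highest at the TSS itself in active replicate 3, at 15.3%. In active replicate 1 it was highest 100 bp before the TSS, at 6.94% (5 members). All protein-coding genes reached 11.9% in active replicate 3 and 4.82% in active replicate 1. In active replicate 2 the member maximum lay 4900 bp past the TSS, at 5.56%. In inactive replicates 1 to 3 it lay 4800 bp past, 4300 bp before and 5000 bp past the TSS, at 1.39% to 4.17%. At the TSS the libraries other than active replicate 3 covered 0% to 5.56% of members.

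**Figure D2:**
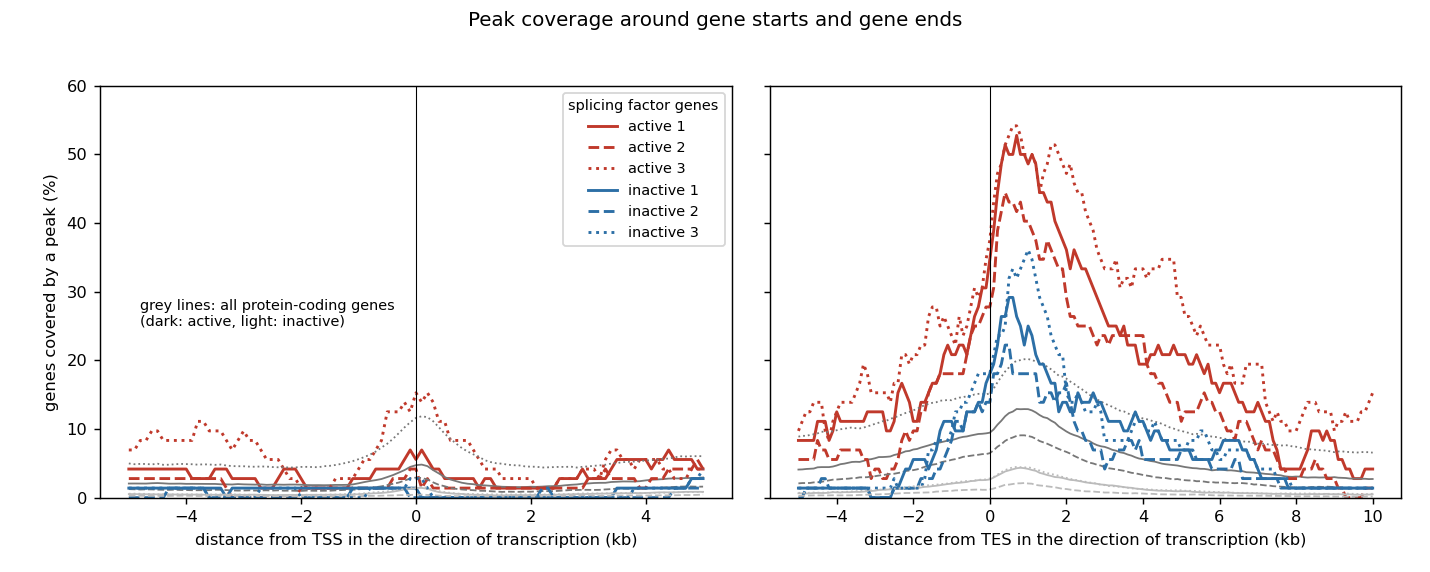
Percent of genes covered by a peak (y axis) at each distance in kb from the TSS (left) and the TES (right), in steps of 100 bp along the direction of transcription. Red and blue lines are the splicing factor genes with active and inactive SCP1 by replicate and grey lines all protein-coding genes; the member lines peak 400 to 1000 bp past the TES in all 6 libraries.

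In the downstream window 25 members had a peak in all 6 libraries, beside 4.46% of all protein-coding genes with this pattern, and 6 members had a peak in the 3 active libraries and none in the inactive ones, beside 5.44% of all genes. No member, and no protein-coding gene, had a peak in the 3 inactive libraries and none in the active ones. Without active replicate 2, which has the shortest active list, 11 members had the active-only pattern, beside 11.6% of all genes. The share of members with the active-only pattern is thus near the background, and that of members occupied in all 6 libraries lies above it. Of 12 SR protein genes 6 were occupied in all 6 libraries, as were 13 of 25 hnRNP genes. The pattern held for 2 of 9 SF3A and SF3B genes, 2 of 12 PRPF genes, 2 of 12 snRNP polypeptide genes and 0 of 2 U2AF genes. Active-only peaks were found at 0 SR protein genes, 1 hnRNP gene, 1 SF3A or SF3B gene, 3 PRPF genes and 1 snRNP polypeptide gene.

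**Figure D3:**
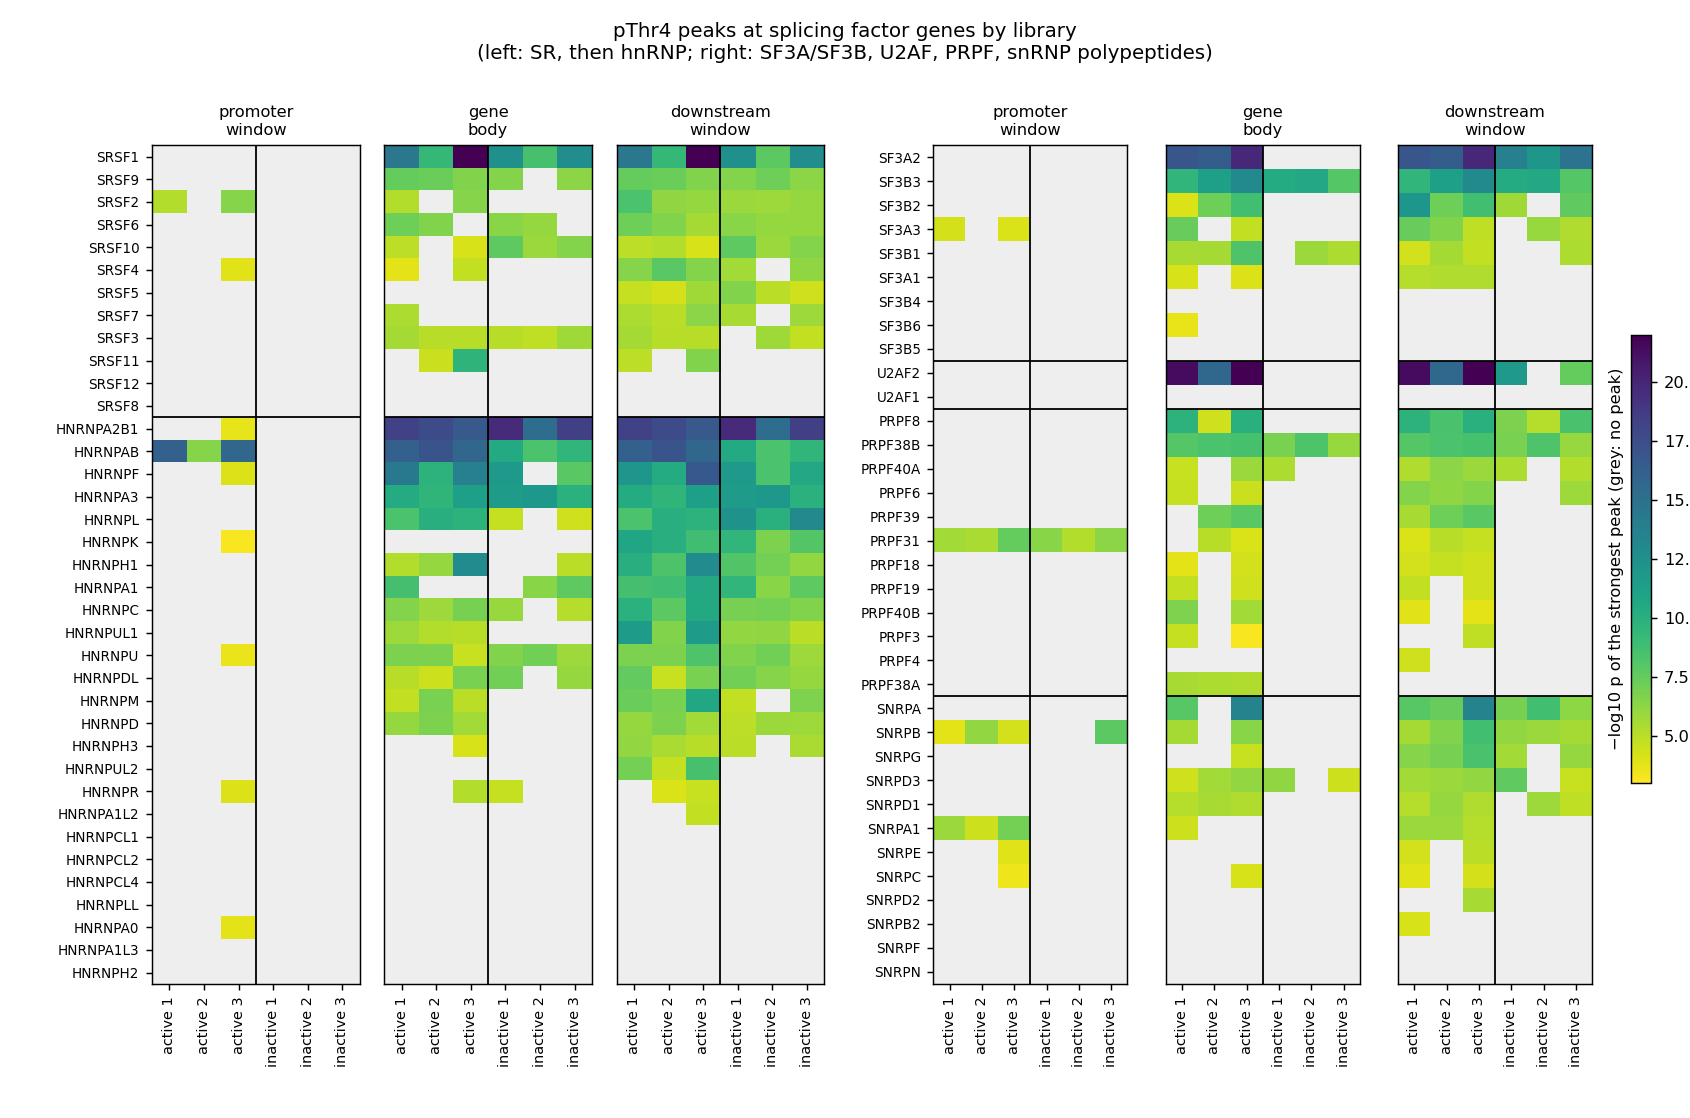
The -log10 p of the strongest peak (colour; grey, no peak) of the 72 splicing factor genes (y axis) in the 6 libraries (x axis; active SCP1 left and inactive SCP1 right of the black line) for 3 windows. Rows are grouped by role; the downstream columns are filled for 25 genes in all 6 libraries, most of them SR protein and hnRNP genes, and the promoter columns are mostly grey.

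Among the SR protein genes, SRSF1, the prototype of the family and a regulator of splice site choice, had the highest values downstream. Its -log10 p was 14.5, 9.33 and 28.1 in active replicates 1 to 3 and 12.5, 7.82 and 12.7 in inactive replicates 1 to 3. Active replicate 3 stood highest, and the groups overlapped. SRSF1 was also the only member with a peak lying wholly inside the gene in all 6 libraries (0.71% of all genes), with a -log10 p of 8.10, 8.70 and 11 with active SCP1, as against 9.01, 8.53 and 8.76 with inactive SCP1. These inner peaks were broad, 6712, 7888 and 7776 bp with active SCP1, as against 7704, 2649 and 6094 bp with inactive SCP1, on a gene whose end is also marked by its own peak. Neither their widths nor their -log10 p separated the groups. The downstream peak of SRSF1 also touched the promoter window of VEZF1.

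SRSF10, whose product represses splicing when it is dephosphorylated, had higher deposited values with inactive SCP1. Downstream its -log10 p was 4.90, 5.19 and 4.12 with active SCP1, as against 7.72, 5.86 and 6.54 with inactive SCP1. All 3 inactive libraries were higher and the groups did not overlap. As deposited, the fold enrichment was 3.74, 3.86 and 3.36 against 5.13, 4.17 and 4.64. Divided by the median of its own list, on the log2 scale, it was 0.14, 0.13 and 0.11 against 0.42, 0.10 and 0.27, and the groups then overlapped. The inactive peaks also reached farther into the gene from the TES, 228, 172 and 727 bp, where the active peaks reached 71 and 10 bp in replicates 1 and 3 and in replicate 2 began 307 bp past the TES; 2 of 875 protein-coding genes with a downstream peak in all 6 libraries had this direction. In the gene body SRSF10 was occupied in active replicates 1 and 3 and in all 3 inactive libraries, and it and HNRNPA1 were the 2 members with more inactive than active libraries there (0.23% of all genes). Counting only peaks wholly inside the gene, SRSF10 had a peak in active replicates 1 and 3 and in no inactive library. The downstream peaks of all 6 libraries also touched the downstream window of PNRC2, whereas the peaks wholly inside SRSF10 touched no window of another gene.

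The other SR protein genes had lower values. SRSF9 stood at 7.46, 7.27 and 6.61 with active SCP1, as against 6.49, 7.19 and 6.32 with inactive SCP1 on the -log10 p scale, and SRSF6, a regulator of alternative exons, at 7.16, 6.63 and 5.57 against 6.36, 6.02 and 6.01. Both overlapped between the groups. SRSF2, a factor of exon inclusion found in nuclear speckles, had 8.40, 6.13 and 6.00 against 5.88, 5.81 and 6.00, with active replicate 1 alone standing clear of the rest. SRSF5 completed the SR genes occupied in all 6 libraries, at 4.66, 4.25 and 5.73 against 6.6, 4.93 and 4.38. SRSF4, SRSF7 and SRSF3 each lacked a downstream peak in 1 inactive library. SRSF12 and SRSF8 had no peak anywhere.

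The hnRNP genes made up 13 of the 25 members occupied downstream in all 6 libraries. HNRNPA2B1, which encodes a binder of nascent transcripts and of transported mRNA, lies at chr7:26189927-26200746 on the minus strand of GRCh38.p14. Its downstream -log10 p was 18.3, 17.7 and 16.7 with active SCP1, as against 19.7, 15.2 and 18.4 with inactive SCP1, at fold enrichments of 7.64, 7.56 and 7.09 against 8.45, 6.8 and 8.15. The groups overlapped on both scales. In each library its peak ran from inside the gene past the whole 5 kb window, ending 7446, 7576 and 7168 bp past the TES with active SCP1, as against 7057, 6537 and 6991 bp past it with inactive SCP1. The active peaks all ended farther out than the inactive ones. The peaks of all 6 libraries also covered part of NFE2L3, so they cannot be assigned to HNRNPA2B1 alone.

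HNRNPAB, an hnRNP of the A/B type, was clearly separated between the groups. Its downstream -log10 p was 16.1, 17.1 and 15.7 with active SCP1, as against 10.4, 8.42 and 9.48 with inactive SCP1. The fold enrichment was 6.96, 7.49 and 6.87 against 5.60, 4.77 and 5.36, and the groups did not overlap on either scale. With active SCP1 the peaks of replicates 1 and 3 were 13718 and 15914 bp wide and began 59 and 112 bp inside the TSS, so they spanned nearly the whole gene of 6631 bp. With inactive SCP1 the downstream peak reached 1900, 1064 and 1721 bp back from the TES and touched no promoter window. The neighbouring gene PHYKPL lay under the same peaks.

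HNRNPL, whose product binds CA-rich elements, had peaks of different extent in the groups. Its downstream -log10 p was 8.38, 10.0 and 9.68 with active SCP1, as against 12.3, 9.92 and 13.1 with inactive SCP1, so that the groups overlapped. From the TES the active peaks reached 11581, 4506 and 9051 bp back into the gene. The inactive peaks began 29, 59 and 54 bp past the TES and reached none of the gene. Separate inner peaks were listed in inactive replicates 1 and 3, with a -log10 p of 4.66 and 4.36.

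HNRNPF, HNRNPH1, HNRNPA3, HNRNPK, HNRNPA1 and HNRNPC also carried a downstream peak in all 6 libraries. For HNRNPF, a binder of G-rich runs, the -log10 p was 12, 10.3 and 16.8 with active SCP1, as against 11.7, 8.37 and 10.5 with inactive SCP1. For HNRNPH1, its close relative, the values were 10.1, 8.34 and 12.8 against 8.12, 6.97 and 6.05, and these groups did not overlap. HNRNPC, which coats uridine tracts of nascent RNA, had 9.85, 7.76 and 10.4 against 6.91, 6.95 and 6.63, again without overlap. HNRNPA3 had 10.3, 9.56 and 11.3 against 11.5, 11.9 and 9.83, and here the groups overlapped. HNRNPUL2, a relative of HNRNPU, was the only hnRNP gene with the active-only pattern downstream, at 6.94, 4.67 and 8.54, and its peaks also covered the start of BSCL2. HNRNPU, HNRNPD, HNRNPDL and HNRNPUL1 made up the rest of the 13, and HNRNPM and HNRNPH3 lacked a downstream peak in inactive replicate 2 only.

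Members of the U2 snRNP and its helpers differed from gene to gene. SF3A2, an SF3A subunit needed for U2 snRNP binding at the branch site, had a downstream -log10 p of 16.9, 16.4 and 19.9 with active SCP1, as against 13.8, 11.9 and 14.7 with inactive SCP1. All 3 active libraries were higher. The active peaks reached 2465, 165 and 3306 bp back into the gene, whereas the inactive peaks began 746, 693 and 498 bp past the TES, so SF3A2 had a gene body peak with active SCP1 alone. The same downstream peaks covered AMH, a short gene next to SF3A2. SF3B3, a scaffold subunit of SF3B, had 9.52, 11.3 and 12.9 against 10.3, 10.6 and 7.98, and the groups overlapped. SF3B1, which holds the branch site region, was occupied downstream in the 3 active libraries and in inactive replicate 3, at 4.30, 5.58 and 4.73 against 5.31. SF3A1 was the SF3 gene with the active-only pattern, at 5.13, 5.29 and 5.29. SF3B4 and SF3B5 had no peak in any library; SF3B5 spans 690 bp and so had no gene body window.

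U2AF2, the polypyrimidine tract binder of the U2AF pair, lies at chr19:55655035-55674716 on the plus strand. Its downstream -log10 p was 21.5, 15.6 and 24.7 with active SCP1, and 11.8 and 7.52 in inactive replicates 1 and 3, with no peak in inactive replicate 2. The active values were all higher. The same active peaks extended back over the TES, and U2AF2 had no gene body peak with inactive SCP1. U2AF1, which recognises the AG of the 3' splice site, had no peak in any window; a near-identical copy of it stands in this assembly, and how the authors placed reads shared by the copies is not given in the sources used here, so the absence is uncertain. The same holds for the HNRNPCL genes and HNRNPA1L3, which belong to families of near-identical copies.

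**Figure D4:**
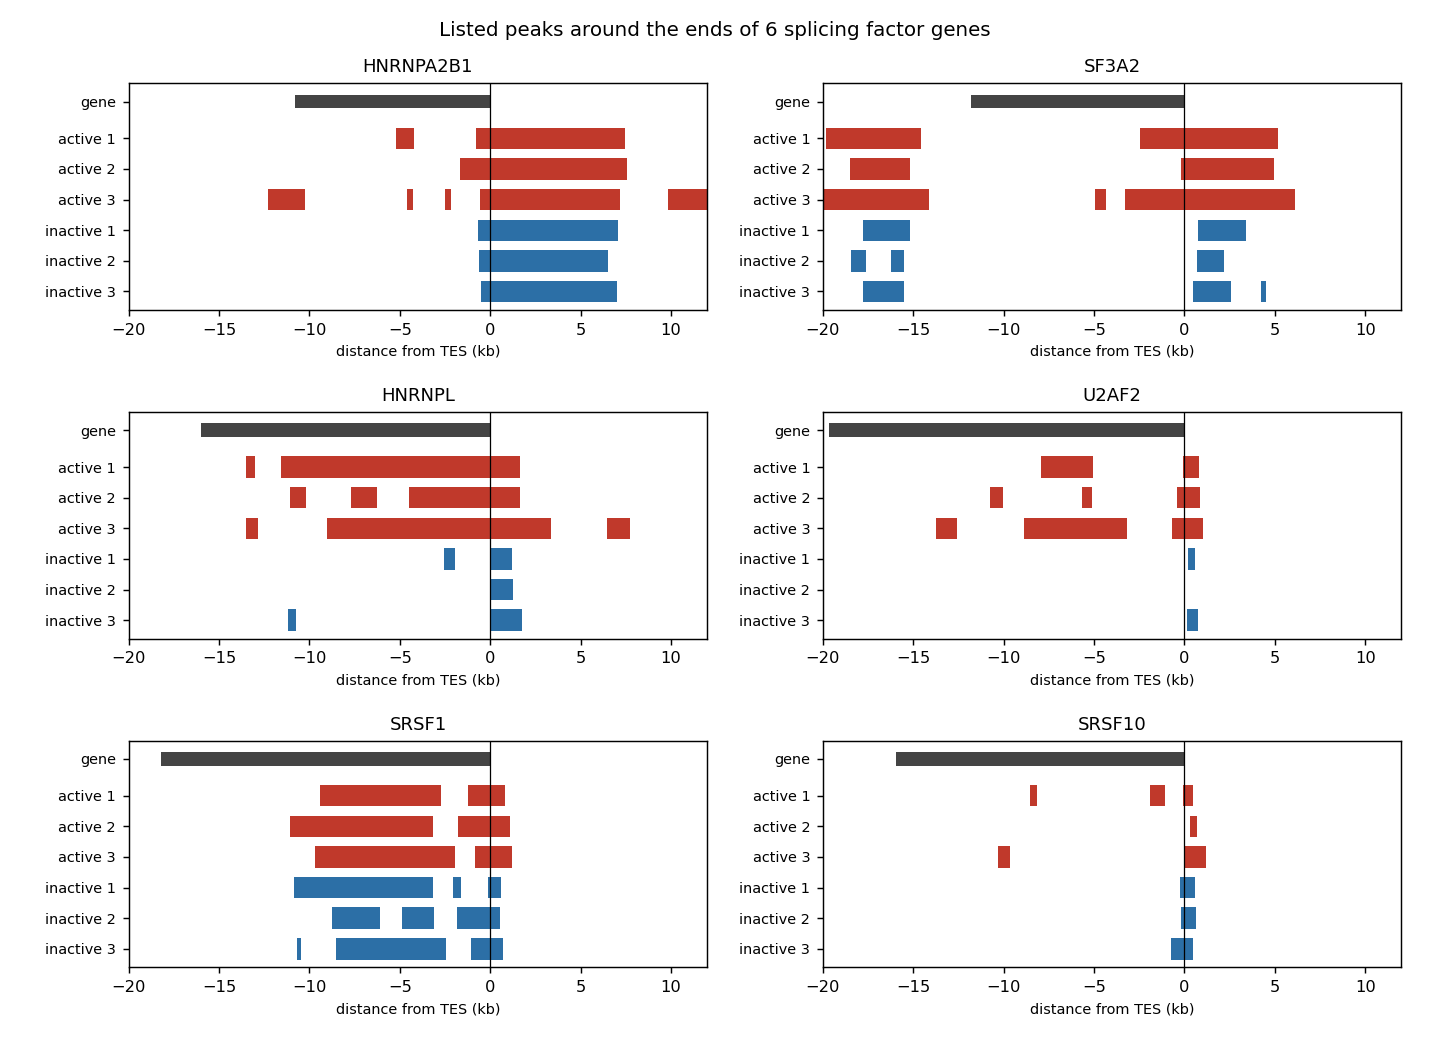
Listed peaks (bars; red, active SCP1; blue, inactive SCP1) from 20 kb before to 12 kb past the TES of 6 splicing factor genes, by library (y axis) and distance from the TES in kb (x axis), with the gene as a dark bar. Active peaks run back into HNRNPL and SF3A2 where inactive ones begin past the TES, the end peak of HNRNPA2B1 runs 6537 to 7576 bp past the TES in the 6 libraries, and at SRSF10 the inactive peaks reach farther into the gene.

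Among the PRPF genes, PRPF8, the large protein at the centre of the tri-snRNP, had a downstream -log10 p of 9.73, 8.48 and 9.96 with active SCP1, as against 6.76, 5.08 and 8.48 with inactive SCP1. Its active values were higher except that active replicate 2 and inactive replicate 3 were nearly equal. PRPF38B had 8.04, 8.39 and 8.56 against 6.85, 8.23 and 5.93. PRPF18, PRPF39 and PRPF31 were occupied downstream with active SCP1 alone. PRPF39, a U1 snRNP associated protein, was the strongest of these at 5.51, 7.23 and 7.87, and FKBP3 lay under the same peaks. PRPF18, a factor of the late catalytic step, had 4.27, 4.66 and 4.38, and PRPF31, which assembles the tri-snRNP, 4.07, 5.03 and 4.67. The PRPF18 and PRPF31 values are near or below the lowest -log10 p listed with inactive SCP1, 4.20 to 4.6, so an equally strong peak could have gone unlisted there.

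For the snRNP polypeptides, SNRPA, the A protein of the U1 snRNP, and SNRPB, a protein of the Sm core, were occupied downstream in all 6 libraries. SNRPA had a -log10 p of 7.96, 7.39 and 13.5 with active SCP1, as against 6.89, 8.78 and 6.23 with inactive SCP1. SNRPB had 5.52, 6.59 and 8.77 against 6.05, 5.88 and 5.57. Both overlapped between the groups. SNRPA1, the A' protein of the U2 snRNP, had the active-only pattern downstream, at 5.83, 5.84 and 5.13, and these peaks reached the promoter window of SELENOS. SNRPF and SNRPN had no peak.

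The values of columns from lists of unequal length were also set against each list. Dividing the fold enrichment by the median of its list gave the relative fold enrichment, on the log2 scale. Of the 25 downstream windows with a peak in all 6 libraries, 17 had higher values with active SCP1 without overlap of the groups and 0 had lower ones, beside 59.2% and 0.229% of all such windows. The median difference was 0.30 for the members and 0.31 for all genes. HNRNPAB had the largest difference, 0.65 (1.09 ± 0.05 against 0.44 ± 0.13, SD, n = 3 and 3), followed by HNRNPUL1 at 0.54 (0.27 ± 0.31 against -0.26 ± 0.07). For SRSF10 it was -0.13 (0.13 ± 0.02 against 0.26 ± 0.16) and for HNRNPL -0.07 (0.21 ± 0.10 against 0.28 ± 0.17), and both overlapped. With 3 libraries against 3 the exact two-sided permutation test cannot go below p = 0.1, which is the value of every window without overlap. The list medians themselves were lower with active SCP1 (3.11 to 3.53) than with inactive SCP1 (3.84 to 3.89). With the fold enrichment as deposited, 3 of the 34 member windows occupied in all 6 libraries (promoter, gene body and downstream together) were higher with active SCP1 and 2 were lower. A peak spanning the TES counts in both the gene body and the downstream window, so these windows are not all separate peaks. For the fold enrichment as deposited, the share of all such windows is not given here. Those counts of 3 and 2 are therefore not read as a trait of the members. The gene body windows higher in relative fold enrichment, at PRPF38B, HNRNPAB and SF3B3, had the same values downstream.

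**Figure D5:**
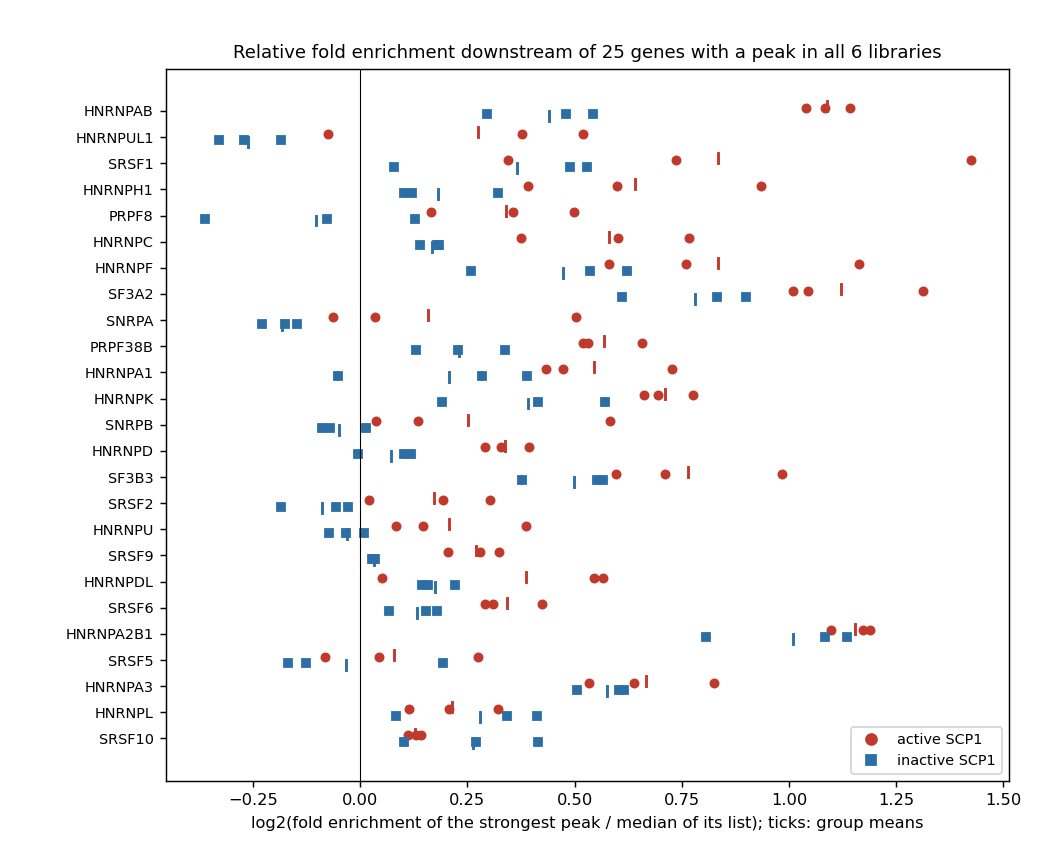
Relative fold enrichment, as log2 of the strongest peak's fold enrichment over the median of its list (x axis), downstream of the 25 splicing factor genes with a peak in all 6 libraries (y axis). Red circles are the 3 active and blue squares the 3 inactive libraries, and ticks the group means; 17 genes have all red points to the right of all blue points, and the means are reversed only for HNRNPL and SRSF10.

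Across the 25 members the peaks also reached different distances. From the TES into the gene the medians were 532, -67 and 428 bp with active SCP1 and -29, -59 and -136 bp with inactive SCP1, where a negative value is a start past the TES. The reach was larger with active SCP1 without overlap for 10 members, beside 60.8% of all 875 such genes. Past the TES the medians were 2812, 2684 and 3378 bp against 2309, 2016 and 2814 bp, and 9 members reached farther with active SCP1 without overlap, beside 53.3% of all such genes. The share of members with a longer reach was below that of all genes in both directions.

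In the gene body 43, 29 and 45 of 71 members had a peak with active SCP1, as against 18, 12 and 18 with inactive SCP1. All protein-coding genes stood at 28.4%, 17.9% and 52.2% against 7.10%, 3.33% and 7.67%, where the members stood at 60.6%, 40.8% and 63.4% against 25.4%, 16.9% and 25.4%. Active replicate 3 has the longest list, and the member share exceeded that of all genes least there. Gene body peaks were of different kinds, and a member could hold more than 1. A peak spanning the TES was listed for 25 of the 43, 20 of the 29 and 27 of the 45 occupied members with active SCP1, and for 13 of 18, 10 of 12 and 13 of 18 with inactive SCP1. A peak wholly inside the gene was listed for 28 of the 43, 16 of the 29 and 32 of the 45, and for 7 of 18, 4 of 12 and 6 of 18. Of all protein-coding genes with a gene body peak, 79.3%, 73.2% and 84.6% had one wholly inside with active SCP1, as against 62.9%, 63.0% and 63.9% with inactive SCP1, above the members' share in each library. The members are shorter genes, with a median length of 15394 bp against 24819 bp for all protein-coding genes. The part of gene length in this was not tested. Active-only gene body peaks were listed for 9 members, beside 7.03% of all genes, and peaks in all 6 libraries for 8 members, beside 2.6% of all genes. Without active replicate 2 the active-only count was 20 (17.2% of all genes), and without inactive replicate 2 the count in all remaining libraries was 14 (4.63%). The active-only members were PRPF38A, HNRNPD, SF3B2, PRPF8, SNRPD1, SF3A2, HNRNPM, HNRNPUL1 and U2AF2. PRPF38A, a tri-snRNP protein, had 5.45, 5.37 and 5.24 with active SCP1 from peaks inside the gene and no downstream peak.

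Intragenic peaks, lying wholly between 1 kb past the TSS and the TES, were listed at 28, 16 and 32 members with active SCP1, as against 7, 4 and 6 with inactive SCP1. These were 39.4%, 22.5% and 45.1% of members against 22.6%, 13.1% and 44.2% of all genes with active SCP1, and 9.86%, 5.63% and 8.45% against 4.47%, 2.09% and 4.90% with inactive SCP1. The member share was thus 1.72 to 2.69 times that of all genes in 5 libraries and 1.02 times in active replicate 3, which has the longest list. Over all libraries 41 of 71 members had at least 1, beside 48.9% of all genes, and 6 had the active-only pattern, beside 5.39%. The share of members in at least 1 library and the active-only share are near the background. HNRNPF had the highest intragenic value, with a -log10 p of 14.3, 9.72 and 13.7 with active SCP1 and of 7.91 and 7.87 in inactive replicates 1 and 3. The active values were all higher. HNRNPC, a gene of 60296 bp, held 11, 6 and 9 separate intragenic peaks with active SCP1, as against 1, 0 and 1 with inactive SCP1. SRSF3, an SR protein that also takes part in mRNA export, had an intragenic peak in active replicate 1 and in all 3 inactive libraries. The active peak, at chr6:36600011-36600312 with a -log10 p of 4.09, lay apart from the inactive ones. The inactive peaks began at 36604399, 36604653 and 36604618, with 5.06, 4.85 and 5.71, so these values are of different sites. With active SCP1 the strongest gene body peak of SRSF3 crossed the TES and was 5098, 6070 and 6184 bp wide. With inactive SCP1 it was 955, 682 and 261 bp wide and ended inside the gene. SRSF11 had 4.56 and 9.61 in active replicates 2 and 3 and no other peak of this kind.

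Some intragenic peaks lay at a start site inside the gene. RefSeq listed an inner start more than 1 kb inside 7 members, and an intragenic peak stood within 500 bp of it in at least 1 library for 4 of them, SRSF11, HNRNPH1, HNRNPF and HNRNPL, beside 16.7% of the 3421 genes with such a start. In all 3 active libraries this held for HNRNPF and HNRNPH1, beside 1.7% of such genes. The sequence before the inner starts of HNRNPF and SRSF11 is shown, together with that of SNRPA1, because the peaks of these genes covered a start that can be read from RefSeq without transcribed sequence of the usual mRNA. Sequences are from RefSeq GRCh38.p14, 5' to 3' on the strand of the gene, and capitals mark any match to the CCAAT box (CCAAT), the GC box (GGGCGG), an ETS motif (CCGGAAG), the TATA box (TATAAA) or an E-box (CACGTG), on either strand.
HNRNPF, chr10:43397347-43397527, minus strand, 250 to 70 bases before the inner start: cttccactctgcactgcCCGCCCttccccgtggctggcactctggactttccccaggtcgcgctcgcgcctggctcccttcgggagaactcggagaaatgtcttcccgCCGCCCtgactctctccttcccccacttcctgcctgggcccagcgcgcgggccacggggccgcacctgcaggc
SRSF11, chr1:70221130-70221379, plus strand, 250 to 1 bases before the inner start: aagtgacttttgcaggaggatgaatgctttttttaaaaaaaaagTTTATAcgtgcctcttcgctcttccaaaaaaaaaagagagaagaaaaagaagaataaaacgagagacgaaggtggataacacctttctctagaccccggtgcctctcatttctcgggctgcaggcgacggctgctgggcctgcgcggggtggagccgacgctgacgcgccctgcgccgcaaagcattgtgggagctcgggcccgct
SNRPA1, chr15:101295249-101295498, minus strand, 250 to 1 bases before the start: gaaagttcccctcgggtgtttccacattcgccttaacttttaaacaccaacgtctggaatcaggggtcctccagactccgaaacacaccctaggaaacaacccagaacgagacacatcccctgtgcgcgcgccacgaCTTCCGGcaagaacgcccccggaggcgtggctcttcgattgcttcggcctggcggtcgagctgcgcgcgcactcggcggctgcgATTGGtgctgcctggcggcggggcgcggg
The HNRNPF stretch held 2 matches to the GC box, 233 and 142 bases before the start. The SRSF11 stretch held 1 match to the TATA box letters, 206 bases before the start. The SNRPA1 stretch matched the ETS motif and the CCAAT box 113 and 29 bases before the start. All of these matches were on the other strand, and the SRSF11 match lay outside the SRSF11 peaks. The HNRNPF match at 233 bases lay under the peak of active replicate 3 only. The match at 142 bases lay under the peaks of active replicates 1 to 3 and under no inactive peak. Among 22182 RefSeq promoters of protein-coding genes, 250 bases each, 53.7% held the GC box, 9.01% the TATA box, 10.7% the ETS motif, 32.7% the CCAAT box and 7.38% the E-box. Of the 87 promoters listed for members, 50.6% held the GC box, 8.05% the TATA box, 26.4% the ETS motif, 40.2% the CCAAT box and 10.3% the E-box. These letters are matches in a window and not sites of binding. The HNRNPF peaks began 176, 170 and 263 bp before the inner start with active SCP1 and 14 and 61 bp before it in inactive replicates 1 and 3. At SRSF11 they began 26 and 174 bp before the inner start in active replicates 2 and 3.

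Promoter windows were occupied less often than downstream windows. A peak was listed for 6, 4 and 15 of 72 members with active SCP1, as against 1, 1 and 2 with inactive SCP1, where all genes stood at 7.04%, 4.47% and 19.2% against 2.30%, 0.902% and 2.56%. The member shares, 8.33%, 5.56% and 20.8% against 1.39%, 1.39% and 2.78%, were near that background with the outermost start of each gene. In at least 1 library 15 members had a promoter peak, beside 20.0% of all genes, and 9 of them had it in active replicate 3 alone, beside 12.4%. The active-only pattern was found at 2 members, HNRNPAB and SNRPA1, beside 1.28% of all genes, and the pattern of all 6 libraries at 1 member, PRPF31, beside 0.825%. Without active replicate 2, 4 members had the active-only pattern, beside 3.40%. When any listed start of a gene was counted, an alternative chosen after seeing the data, member shares lay above those of all genes. They were 12.5%, 9.72% and 25% against 7.84%, 4.96% and 21.6% with active SCP1. With inactive SCP1 they were 2.78%, 1.39% and 5.56% against 2.45%, 0.948% and 2.77%, from 2, 1 and 4 members.

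SNRPA1 was the member whose active-only peak crossed the TSS itself. Its promoter -log10 p was 5.84, 4.45 and 7.0 with active SCP1, at fold enrichments of 3.75, 3.08 and 4.07, and no peak was listed with inactive SCP1. The peaks ran from 252, 413 and 529 bp before the TSS to 432, 4 and 267 bp past it and touched no window of another protein-coding gene. With each list at its 1163 strongest peaks SNRPA1 was no longer among the active-only members. HNRNPAB remained there, but its peaks began 59, 191 and 112 bp inside the TSS and were 13718, 3139 and 15914 bp wide. PRPF31 had a promoter -log10 p of 5.60, 5.42 and 7.5 against 6.38, 5.21 and 6.33, and the groups overlapped. All 6 of its peaks also touched the promoter window of TFPT, so they cannot be assigned to PRPF31 alone. SNRPB had 3.80, 6.05 and 4.30 with active SCP1 and 7.78 in inactive replicate 3.

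Neighbouring genes lay under many of the downstream peaks. The strongest downstream peak also touched a window of another protein-coding gene for 30 of 52, 27 of 46 and 30 of 54 occupied members with active SCP1 and for 20 of 34, 14 of 28 and 22 of 39 with inactive SCP1. With peaks that touched no other gene, 22, 20 and 25 members were occupied downstream against 14, 14 and 17, where all genes stood at 9.51%, 6.54% and 16.5% against 3.21%, 1.71% and 3.35%. Then 10 members had a peak in all 6 libraries, beside 1.12% of all genes, and 2 had the active-only pattern, beside 1.8%.

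Related genes outside the name rule were counted from fixed lists. Of 73 other spliceosome genes, 44, 40 and 50 had a downstream peak with active SCP1, as against 23, 19 and 28 with inactive SCP1, with 16 occupied in all 6 libraries and 10 with active SCP1 alone. Of 21 other hnRNP-like genes, 18, 17 and 19 had one with active SCP1, as against 15, 13 and 16 with inactive SCP1, with 12 occupied in all 6 libraries and 1, QKI, with active SCP1 alone. As among the members, the hnRNP-like list had the higher share in all 6 libraries, 57.1% against 21.9% of the other spliceosome genes. Both lay above the 4.46% of all protein-coding genes. The active-only pattern was held by 13.7% of the other spliceosome genes and 4.76% of the hnRNP-like genes, beside 5.44% of all genes. By library, all genes stood at 25.9%, 18.8% and 39.4% in active replicates 1 to 3. In inactive replicates 1 to 3 they stood at 10.1%, 5.25% and 10.7%. The 13 members without a peak in any window and library were HNRNPCL1, HNRNPCL2, HNRNPCL4, HNRNPLL, HNRNPA1L3, HNRNPH2, SRSF8, SRSF12, SF3B4, SF3B5, SNRPF, SNRPN and U2AF1. The read depth being unknown, a missing peak says only that none passed the caller in that library.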

How the data were processed

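The peak lists were made by the authors, 1 per library, in the broadPeak layout of MACS. As deposited, column 7 is a fold enrichment (a linear ratio), column 8 a -log10 p-value, column 9 a -log10 q-value and column 5 a score, which was not used. The submitters' processing notes name FastQC, cutadapt 4.6 and Bowtie2 2.5.2 and the build hg38; the caller's version, its control and its cutoffs are not given in the sources used here, and the read depth is unknown. The labels call the samples biological replicates. No GRCh38 genome was at hand, so gene bounds came from the RefSeq GRCh38.p14 table, strands from the RefSeq promoter table (64 members) or, by name and chromosome, from GENCODE 44 (8 members), and sequences from the promoter table. RefSeq promoter stretches were printed only where no protein-coding GENCODE transcript shared 31 bases with them.

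Windows, overlaps and counts were computed in Python 3.11.15 with numpy 2.4.6 and pandas 2.3.3, were tested on simulated peaks, and covered chromosomes 1 to 22 and X. Named by rule were, per window, members with a peak in the 3 active and no inactive library and members with a peak in all 6, up to 8 each ranked by their lowest -log10 p, all members with more inactive than active libraries, and up to 8 members with an intragenic peak in at least 2 active libraries; other members were named after their values were seen, and all are counted by role. Members, lists and tests were chosen with earlier results of these data known. The given paper describes another phosphatase and served for style alone. Peak names carry a number, 10 in replicates 1 and 2 and 5 in replicate 3 of both groups, whose meaning is not given. Whether replicate numbers pair the aliquots is not stated; deviations of same-numbered libraries from their group means, over 8225 downstream windows, correlated at 0.018, -0.063 and -0.059. Alternatives were equal peak numbers, common p and stricter q cutoffs, an overlap of 200 bp, other windows, unshared peaks and leaving out each library.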

Additional observations from a re-analysis of the deposited data

How the results depend on the processing

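The read depth behind the lists is unknown, and its part in these counts was not tested; a list that stops at a higher -log10 p can lack peaks that a longer list holds, and no interval or floor could be given without read counts. The log2 ratio of the mean number of occupied members, active over inactive, was 2.64 in the promoter window, 1.29 in the gene body and 0.59 downstream. With equal peak numbers these were 0, 0.42 and -0.10, so the downstream ratio changed sign; here the shortening to 1163 peaks is itself the change. With equal peak numbers the active-only counts were 1, 3 and 0 in the promoter window, gene body and downstream window, and the counts in all 6 libraries were 0 in the promoter window and 16 downstream. Downstream all genes then stood at 0.336% and 2.39%. The share of all genes moves with each setting. Where it is not printed beside a count, that count is not read as a trait of the members. With a -log10 p of at least 6 the ratios were 1.22 in the promoter window and 0.93 in the gene body, the active-only counts 1, 3 and 1, and the counts in all 6 libraries 0, 5 and 14. Here 1.01% and 1.8% of all genes had these patterns downstream. With a -log10 q of at least 2 the promoter ratio was 1.87, the active-only count 1 and the count in all 6 libraries 0. Intragenic peaks alone gave a gene body ratio of 2.16 and 1 member in all 6 libraries.

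Peaks that touched no other protein-coding gene, an alternative chosen after seeing the data, gave ratios of 3.81 in the promoter window and 1.72 in the gene body, active-only counts of 1 in the promoter window and 2 downstream, and 0, 3 and 10 members in all 6 libraries. With such peaks 1.8% of all genes had the active-only pattern downstream and 1.12% a peak in all 6 libraries. The difference of SRSF10 in the gene body, active minus inactive libraries with a peak, was -1 and became 2 both with these peaks and with intragenic peaks alone. The cause was not tested.

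The member share over that of all genes, taken over the 3 windows together, averaged 1.85 in the active and 4.13 in the inactive group, a log2 ratio of -1.16. It was 4.42 for active SCP1 with equal peak numbers (log2 ratio -0.24), 3.97 and 5.99 with the common p cutoff (log2 ratio -0.59), 2.80 and 5.93 with the stricter q, and 6.02 for inactive SCP1 with unshared peaks. The relative fold enrichment was higher with active SCP1 without overlap in 20 of 34 member windows and lower in 0. Of all such windows 61.7% (promoter), 61.2% (gene body) and 59.2% (downstream) were higher, so the member count is near the background. The fold enrichment as deposited gave 3 and 2 member windows. List medians taken over peaks of a -log10 p of at least 6 gave 5 and 2. For these settings the share over all genes is not given here.

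Leaving out each library in turn moved the log2 ratios to 1.91 to 3.06 (promoter), 1.12 to 1.46 (gene body) and 0.47 to 0.71 (downstream), the active-only counts to 2 to 4, 9 to 20 and 6 to 11, and the counts in all remaining libraries to 1, 8 to 14 and 25 to 34. The shares of all genes rise as well, as given above for the active-only pattern without active replicate 2. The relative fold enrichment was then higher in 20 to 30 member windows and lower in 0 to 2, the latter 2 without inactive replicate 2. The share over all genes is not given here for these, so they are not read as a trait of the members. The share ratio was 1.59 to 2.16 with active SCP1 and 3.46 to 4.49 with inactive SCP1 (log2 ratio -1.38 to -0.90).

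With a replicate block, same-numbered libraries taken as pairs, the log2 ratios were 2.5, 1.28 and 0.60, and a higher -log10 p in the active library of all 3 pairs was found for 2 members in the promoter window (3.24% of all genes), 17 in the gene body (12.4%) and 24 downstream (12.2%). A window without a peak was ranked below any listed peak in this count, so members with the active-only pattern are among these. The paired relative fold enrichment was higher in 28 member windows and lower in 0, with the share over all genes not given here. The paired log2 ratio of shares was -1.18. Replicates 1 and 2 alone, whose peak names share a number, kept the direction of the ratios in the 3 windows, at 2.32, 1.26 and 0.66.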
